A study of Mus musculus with 3 samples.

Results

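The cells described here are the larger of the CD4 helper populations in the inflamed sciatic nerve, the cells to which the authors gave the class name Cd4 and the cluster number 0. They were found by those 2 entries in the authors' cell table and number 2225 of 11640 cells, with 1201 in library 1, 539 in library 2 and 485 in library 3. The animals were NOD.AIRE GW/+ mice, aged 15 weeks, which carry 1 altered copy of Aire on the NOD background and are known for autoimmune disease of peripheral nerve. Nerves were taken after cardiac perfusion, minced and digested with collagenase, and the CD45+ fraction, the leukocytes, was loaded on the 10x Chromium system. Every library is of this genotype, age and tissue, so the comparisons run between clusters of the same library and measure no effect of the altered Aire copy. Nerves of wild-type mice are not analysed here. Libraries 1 and 2 were read from the 3′ end and library 3 from the 5′ end of the transcript.

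CD4 helper T cells recognise peptide on MHC class II and act on other cells through secreted cytokines and through membrane ligands of the TNF family. Interleukin 2 (Il2) feeds activated and regulatory T cells, CD40 ligand (Cd40lg) licenses B cells, dendritic cells and macrophages, RANK ligand (Tnfsf11) drives the myeloid precursors of osteoclasts and dendritic cells, and CD30 ligand (Tnfsf8) binds a receptor of activated lymphocytes. Tcf7 encodes TCF-1, a transcription factor of naive, memory and stem-like T cells, and Slamf6 a homotypic adhesion receptor used with it to mark stem-like T cells. In inflammatory neuropathy CD4 T cells are studied for their part in the attack on myelin.

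Il2 lies on chromosome 3 from 37120713 to 37125954, Tnfsf11 on chromosome 14 from 78277446 to 78308043 and Tnfsf8 on chromosome 4 from 63831202 to 63861508, all on the minus strand of GRCm38.p6 in RefSeq. The 250 bases before the start that RefSeq's table gives for each of these genes are shown because they lead the genes higher in the helper cluster. They cover chr3:37125955-37126204 for Il2, chr14:78308044-78308293 for Tnfsf11 and chr4:63861285-63861534 for Tnfsf8, whose window overlaps the annotated gene, and they read 5′ to 3′ on the strand of the gene. Capitals mark GGAAA, the core read by NFAT factors, and CTTTG, the core read by TCF and LEF factors, with the reverse complements TTTCC and CAAAG for the other strand.
Il2: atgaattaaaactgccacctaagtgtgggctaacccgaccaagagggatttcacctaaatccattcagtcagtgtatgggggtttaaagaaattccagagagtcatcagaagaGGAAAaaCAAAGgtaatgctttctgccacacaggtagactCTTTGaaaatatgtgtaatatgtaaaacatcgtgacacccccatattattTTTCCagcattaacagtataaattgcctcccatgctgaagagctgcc
Tnfsf11: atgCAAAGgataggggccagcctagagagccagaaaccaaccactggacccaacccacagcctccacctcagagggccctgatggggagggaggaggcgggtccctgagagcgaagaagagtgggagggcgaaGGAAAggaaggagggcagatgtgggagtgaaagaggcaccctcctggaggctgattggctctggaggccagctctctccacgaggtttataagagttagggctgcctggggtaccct
Tnfsf8: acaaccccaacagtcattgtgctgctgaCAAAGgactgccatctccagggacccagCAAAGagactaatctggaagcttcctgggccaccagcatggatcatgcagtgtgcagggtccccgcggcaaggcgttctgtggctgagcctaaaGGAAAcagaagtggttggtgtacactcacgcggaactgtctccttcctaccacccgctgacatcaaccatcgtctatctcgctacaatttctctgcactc
The Il2 window holds 2 GGAAA and 2 CTTTG matches, the Tnfsf11 window 1 of each, and the Tnfsf8 window 1 GGAAA and 2 CTTTG matches, counted on both strands. Among all 32851 promoter windows of this length, 55.6% hold GGAAA and 48.6% hold CTTTG, so each match is common. TGANTCA, the AP-1 motif, is in 6.75% of all windows and its letters are in none of these 3, and no marked match overlaps another.

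T cells are here the authors' classes Cd4, Cd8 and Treg, and the helper cluster made up 35.5%, 33.8% and 21.4% of them in libraries 1, 2 and 3. Exact 95% intervals ran between 33.9 and 37.1% in library 1, between 31.5 and 36.2% in library 2, and between 19.7 and 23.1% in library 3. The mean was 30.2 ± 7.69% (SD, n = 3 libraries). Library 3, the 5′ library, stood below the other two, and these intervals cover counting error only. The shallow Cd4 cluster 5 took 24.9% of the T cells of library 3 and 10.1% and 4.20% of those of libraries 1 and 2. Of the 973 cells of cluster 5, 380 had 1000 UMIs or more (111, 32 and 237 in libraries 1, 2 and 3). At 1000 UMIs these cells held markers of several T cell types, with Cd4 in 22.9 ± 4.35%, Cd8a in 25.2 ± 17.5% and Foxp3 in 18.6 ± 6.60% (SD, n = 3). Cd8a was seen in 45.1% of them in library 3, and the median mitochondrial percent was 3.23 in the helper cluster, against 7.05 in cluster 5. With cluster 5 set aside the helper cluster was 39.4%, 35.3% and 28.5% of the T cells of libraries 1, 2 and 3, a mean of 34.4 ± 5.52%. Cells of the helper cluster had a median of 3128 UMIs (2754, 3818 and 3357 in libraries 1, 2 and 3), close to the 2975 of regulatory T cells and above the 861 of cluster 5. The cluster held 3856604, 2333972 and 1823421 UMIs in the 3 libraries.

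The label was checked in cells thinned to 1000 UMIs each, which puts clusters of unequal depth on 1 scale. A Cd4 transcript was seen in 29.7 ± 2.72% of helper cells and a Cd3e transcript in 61.2 ± 23.5%, against 1.21% and 6.50% of B cells. Cluster 6, also of class Cd4, was higher for both, at 46.5 ± 9.10% and 75.3 ± 19.4%. Regulatory T cells stood at 19.7 ± 5.76% and 70.1 ± 19.6%. Without thinning, Cd4 was seen in 65.6% of helper cells. Cd8a was seen in 2.52 ± 1.78% of helper cells, against 38.8% of CD8 cluster 3. Foxp3, the master regulator of regulatory T cells, was seen in 1.58 ± 1.10% of helper cells, against 39.8% of regulatory T cells. Library 3 raised both small shares, which were 1.56% for Cd8a and 0.993% for Foxp3 without it, and in B cells the same genes were seen in 1.10% and 0.940%. Markers of other cell types were summed over the RNA of the cluster. The 5 B cell markers summed to between 0.428 and 26.4 counts per 1000000 UMIs (CPM) and the 6 macrophage markers to between 6.43 and 54.7 CPM. The CD8 markers Cd8a and Cd8b1 summed to between 30.4 and 131 CPM. The 3 neutrophil markers summed to at most 1.30 CPM, all from Csf3r, while S100a8 and S100a9 had no UMI. The 4 plasma cell markers summed to between 72.4 and 114 CPM and the 4 plasmacytoid dendritic cell markers to between 86.1 and 133 CPM, against 117 ± 44.1 and 186 ± 62.5 CPM in regulatory T cells. Of 3 endothelial markers 2 were in the table, Cdh5 with no UMI and Pecam1 with 52.6, 50.1 and 57.0 CPM in the helper cluster, against 41.6, 32.5 and 27.6 CPM in the other T cell clusters. The 4 Schwann cell markers summed to between 90.0 and 121 CPM, nearly all from Mbp, and the part of these other cell types in the results was not tested. The 4 regulatory T cell markers (Foxp3, Il2ra, Ikzf2 and Ctla4) summed to between 600 and 1050 CPM in the helper cluster. They summed to 3664 ± 204 CPM in regulatory T cells, and to 357 ± 57.5 and 840 ± 195 CPM in CD8 clusters 3 and 4. The Cd4 and Cd3e values and the low Cd8a and Foxp3 shares go with the authors' class name Cd4, but do not set the cluster apart from cluster 6.

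Cluster 0 was drawn by the authors from these same counts, so its differences from other clusters are given as descriptions without a p-value. UMIs were summed per cluster and library and expressed in CPM, and the log2 ratio of CPM + 5 was taken within each library. A gene is counted as higher or lower where that ratio was at least 1, which is 2-fold, in the same direction in all 3 libraries, among genes with a mean of at least 10 CPM. The ratio understates the difference of genes near 5 CPM. Against the mean of the other 5 T cell clusters (regulatory T cells of cluster 2, CD8 T cells of clusters 3 and 4, and the Cd4 clusters 5 and 6, 5023 cells in all), 31 of 7863 genes were higher in the helper cluster (0.394%) and 127 were lower (1.62%), 2.01% in either direction. The median ratio of all genes was -0.14, and list medians are to be read against it. Scaling by the trimmed mean of M values (TMM) put it at 0.02 and gave 52 genes higher and 101 lower, and 51 were higher without cluster 5 and 50 with the other T cells pooled.

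Tnfsf11 had 135, 278 and 371 CPM in the helper cluster of libraries 1, 2 and 3, against 18.7, 42.5 and 62.9 CPM in the other T cell clusters. The log2 ratio was 2.54 ± 0.06 (SD, n = 3 libraries), nearly the same in each library although the level itself was lowest in library 1. Il2 had 47.7, 101 and 111 CPM in the helper cluster, against 5.41, 2.05 and 3.20 CPM in the other T cell clusters. Its log2 ratio of 3.36 ± 0.88 was the most spread of the leading genes, with library 1 lowest. Tnfsf8 had 1028, 944 and 509 CPM in the helper cluster, against 240, 228 and 128 CPM in the other T cell clusters. Library 3 was low on both sides, and the log2 ratio stayed at 2.02 ± 0.06. Cd40lg had 233, 196 and 329 CPM in the helper cluster, against 69.9, 54.6 and 76.6 CPM in the other T cell clusters, a log2 ratio of 1.82 ± 0.19. Lta, which encodes lymphotoxin alpha, had 50.8, 40.7 and 98.2 CPM in the helper cluster, against 12.6, 4.58 and 27.3 CPM in the other T cell clusters, a log2 ratio of 1.87 ± 0.34.

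Of 15 listed TNF family ligands 14 were in the table and 9 passed the level filter. Tnfsf8, Tnfsf11, Cd40lg and Lta were the 4 counted as higher and no ligand was counted as lower, and the list median was 0.80. The other 5 stayed within 2-fold in at least 1 library: Tnfsf9 (4-1BB ligand) at 0.80 ± 0.32, Tnf at 0.13 ± 0.20, Ltb at 0.10 ± 0.04, Tnfsf10 (TRAIL) at -0.28 ± 0.21 and Fasl at -0.59 ± 0.11 on the log2 scale. Ltb was abundant throughout, with 725, 703 and 593 CPM in the helper cluster and 653, 657 and 566 CPM in the other T cell clusters.

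**Figure D1:**
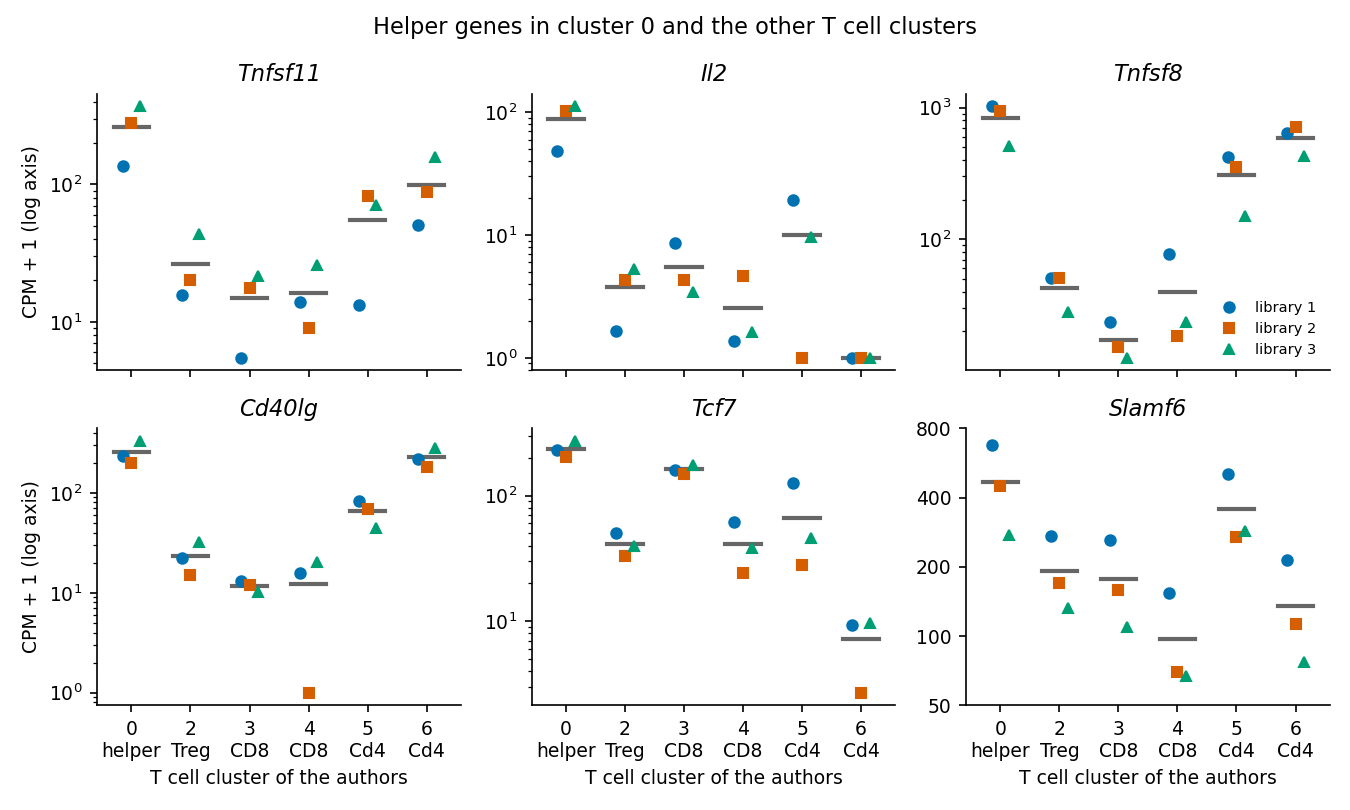
CPM + 1 on a log axis for 6 helper genes in each T cell cluster, 1 point per library and a grey line at the mean, with cluster 0 on the left. Tnfsf11 and Il2 stood above every other T cell cluster in each library, while Cd40lg of cluster 6 reached 219, 181 and 280 CPM beside 233, 196 and 329 CPM in cluster 0.

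Cluster 6, the Cd4 cluster with Il10, came next for Tnfsf8 with 636, 709 and 430 CPM. Its Cd40lg level of 227 ± 50.2 CPM overlapped the 253 ± 68.4 CPM of the helper cluster. The authors' class Mixed, cluster 11, had the highest mean Cd40lg of all clusters, at 342 ± 146 CPM. It was also next after the helper cluster for the mean of Tnfsf11, at 109 ± 71.2 CPM against 262 ± 119 CPM in the helper cluster, and cluster 6 followed at 97.9 ± 54.3 CPM. For Il2 the helper mean of 86.7 ± 34.2 CPM was followed by 12.4 ± 9.83 CPM in Mixed. Slamf6 reached 466 ± 201 CPM in the helper cluster and 355 ± 133 CPM in cluster 5, where library 3 was slightly higher than in the helper cluster (275 CPM in the helper cluster and 286 CPM in cluster 5).

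Tcf7 had 228, 201 and 271 CPM in the helper cluster, against 80.2, 46.5 and 61.1 CPM in the other T cell clusters, a log2 ratio of 1.84 ± 0.34. The nearest cluster was CD8 cluster 3, with 158, 148 and 176 CPM, below the helper cluster in every library. Slamf6 had 675, 449 and 275 CPM in the helper cluster, against 281, 155 and 134 CPM in the other T cell clusters, a log2 ratio of 1.25 ± 0.25. These were the 2 members counted as higher among 10 stem-like and progenitor genes, of which 9 passed the level filter with a median of 0.42 and none was lower. Bcl6, which encodes a transcriptional repressor that promotes the follicular helper fate, stood at 0.89 ± 0.28. Lef1, the partner of TCF-1, stood at 0.42 ± 0.17, while Satb1 and Foxo1 lay at -0.60 ± 0.29 and -0.29 ± 0.13. The 11 follicular helper genes had a median of 0.52 over 10 that passed the level filter, with Slamf6 as the 1 higher member. Il21, the cytokine of that fate, was at 0.98 ± 0.29 and its chemokine receptor gene Cxcr5 was sparse, with 18.9, 6.43 and 22.5 CPM in the helper cluster.

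Ccr7, the receptor that guides T cells to lymph nodes, had 286, 370 and 700 CPM in the helper cluster, against 80.3, 94.7 and 203 CPM in the other T cell clusters, a log2 ratio of 1.81 ± 0.08. Of 8 naive and recirculation genes 7 passed the level filter with a median of 1.00, with Ccr7 counted as higher and Cd27 as lower. Klf2 (1.33 ± 0.38), S1pr1 (1.16 ± 0.55), the gene for the receptor that leads T cells out of tissue, and Il7r (1.00 ± 0.25) had means near or above 2-fold but were short of it in 1 or more libraries, and TMM scaling counted Klf2 and Il7r as higher as well. Cd27, a receptor of the TNF receptor family, had 210, 327 and 215 CPM in the helper cluster, against 634, 994 and 490 CPM in the other T cell clusters.

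Of 10 tissue residency genes 9 were in the table and passed the level filter, 4 were lower (Cxcr6, Itgae, Itga1 and Prdm1) and none was higher, with a median of -1.12. Cxcr6, a chemokine receptor of resident T cells, had 147, 108 and 220 CPM in the helper cluster, against 410, 453 and 912 CPM in the other T cell clusters. Itgae, the CD103 chain that binds epithelial cadherin, had 5.96, 2.14 and 6.58 CPM in the helper cluster, against 50.3, 91.4 and 177 CPM in the other T cell clusters. Cd69 was at 0.68 ± 0.11, on the side away from the rest of the list. Under TMM scaling 3 members were lower, without Itga1.

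The sides of this contrast were also read cell by cell, since a summed level does not say how many cells carry a gene. With each cell thinned to 1000 UMIs, 40.9%, 50.1% and 59.6% of helper cells in libraries 1, 2 and 3 had a UMI of Ccr7, S1pr1 or Klf2 and none of Cxcr6, Itgae or Itga1, a mean of 50.2 ± 9.37%. The same pattern was seen in 30.4 ± 0.601% of regulatory T cells, 31.5 ± 6.76% of CD8 cluster 3, between 5.68% and 6.36% of CD8 cluster 4 over the libraries, and 7.59 ± 1.13% of cluster 6. A residency gene with no recirculation gene was seen in 8.32 ± 2.37% of helper cells, against 18.7 ± 7.64% of regulatory T cells, 51.0 ± 11.4% of CD8 cluster 4 and 42.1 ± 8.02% of cluster 6. Both kinds of gene were seen in 3.89 ± 2.03% of helper cells. The helper cluster was highest for the first pattern and lowest for the second in every library. Only part of the 8 recirculation and 10 residency genes was counted here. Cxcr6, Itgae and Itga1 are among the 4 residency genes already found lower, while Cd27 and Cd69, which went against their lists, were left out. The order of the clusters therefore follows in part from the choice of genes and is no separate support for the summed levels.

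**Figure D2:**
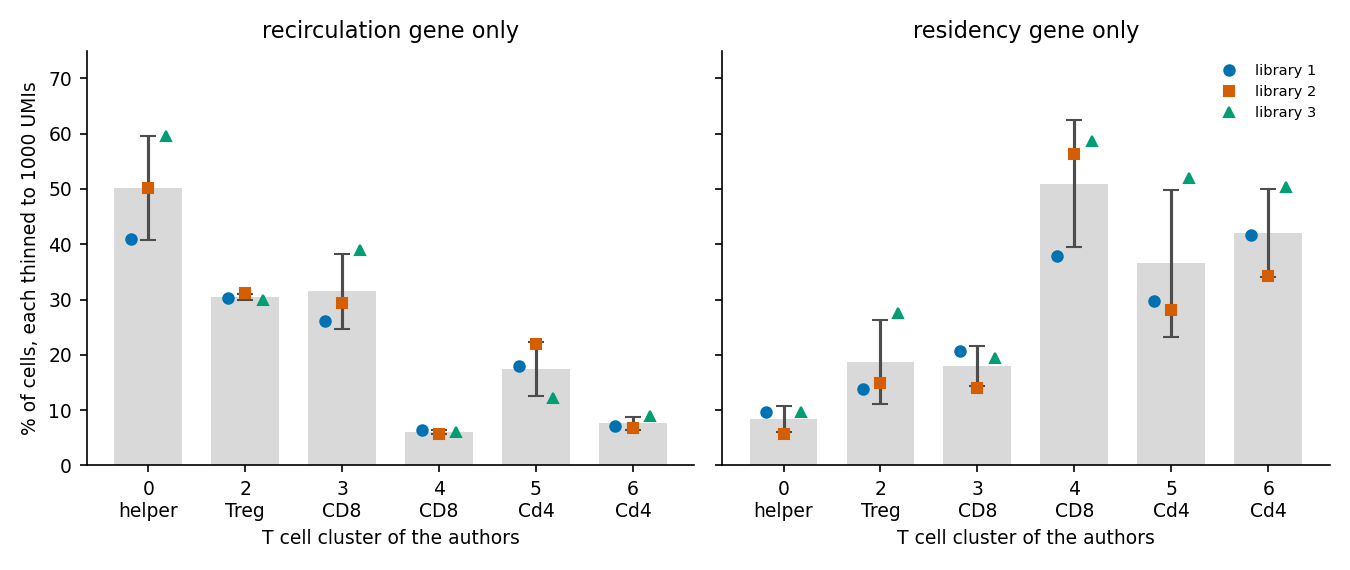
Percent of cells, thinned to 1000 UMIs, with a recirculation gene (Ccr7, S1pr1 or Klf2) and no residency gene (Cxcr6, Itgae or Itga1), left, and the reverse, right, with bars at the mean, whiskers for the SD and 1 point per library. Cluster 0 averaged 50.2% in the left panel and 8.32% in the right panel.

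The remaining named genes higher than in the other T cell clusters were Dusp14, a phosphatase gene (2.17 ± 0.39 on the log2 scale), Fam43a (2.11 ± 0.43), Tnfrsf25, the death receptor 3 that binds TL1A (1.97 ± 0.21), Igfbp7 (1.76 ± 0.22), Tespa1 (1.75 ± 0.42), a gene of T cell receptor signalling in thymocytes, Tbc1d4 (1.67 ± 0.34), Marcksl1 (1.65 ± 0.24) and St6gal1 (1.34 ± 0.05), a sialyltransferase gene. Tbc1d4 was the most abundant of these, with 722, 823 and 400 CPM in the helper cluster, against 275, 195 and 129 CPM in the other T cell clusters. With 67 cells per cluster and library 31 genes were again higher, of which 19 were among the 31 above, and the ratios of Igfbp7 (1.15) and Marcksl1 (1.51) no longer held in every library. With the classes gdT/NK/NKT and Mixed added to the other T cells, the same was so for Tnfrsf25 (1.11) and Cd40lg (1.48).

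Of 12 cytotoxic genes all passed the level filter, 9 were lower and none higher, with a median of -2.95. Ccl5, a chemokine of memory and cytotoxic T cells, had 545, 339 and 1107 CPM in the helper cluster, against 7588, 13357 and 10282 CPM in the other T cell clusters, a log2 ratio of -4.09 ± 1.07 that was -3.50 without library 2. Prf1, which encodes perforin, had 5.19, 3.00 and 9.87 CPM in the helper cluster, against 81.5, 120 and 166 CPM in the other T cell clusters. Ccl4 and Ccl3 stood at -3.29 ± 0.26 and -3.39 ± 0.31, and the killer-lectin genes Klrd1, Klrk1 and Klrc2 at -3.58 ± 0.63, -3.17 ± 0.69 and -3.13 ± 0.52. Neb, which encodes nebulin, a protein of muscle, had 4.67, 4.71 and 4.39 CPM in the helper cluster, against 183, 120 and 89.0 CPM in the other T cell clusters, and was the lowest gene by the library nearest 0. The CD8 genes Cd8a and Cd8b1 stood at -3.29 ± 0.53 and -3.11 ± 0.36, and Havcr2, the checkpoint receptor TIM-3, at -3.34 ± 0.46.

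The other T cell clusters hold the regulatory T cells themselves, and 7 of 10 Treg programme genes were lower in the helper cluster, none higher and a median of -1.40, although TMM scaling left 3 lower (Foxp3, Ikzf2 and Lrrc32). Of 14 checkpoint and anergy genes 13 passed the level filter, and Ctla4, Lag3 and Havcr2 were lower, with a median of -0.66. Cd200 and Btla leaned the other way at 1.24 ± 0.26 and 1.44 ± 0.60, and TMM scaling counted both as higher and Ctla4 no longer as lower. Pdcd1, the gene of PD-1, was at -0.96 ± 0.21. Among 12 Th1 genes Ccl5, Nkg7 and Hopx were lower and none was higher, with a median of -0.29. Tbx21, the Th1 master regulator, was at -0.61 ± 0.08 and its target Ifng at -0.24 ± 0.31, with 240, 287 and 235 CPM in the helper cluster and 325, 382 and 216 CPM in the other T cell clusters. The Ifng levels of the helper cluster and the other T cell clusters overlapped. Of 7 Th2 genes 3 passed the level filter and none was counted, with a median of 0.39. Of 9 Th17 genes 3 passed, with a median of -1.13, and Maf was lower, though not with TMM scaling.

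**Figure D3:**
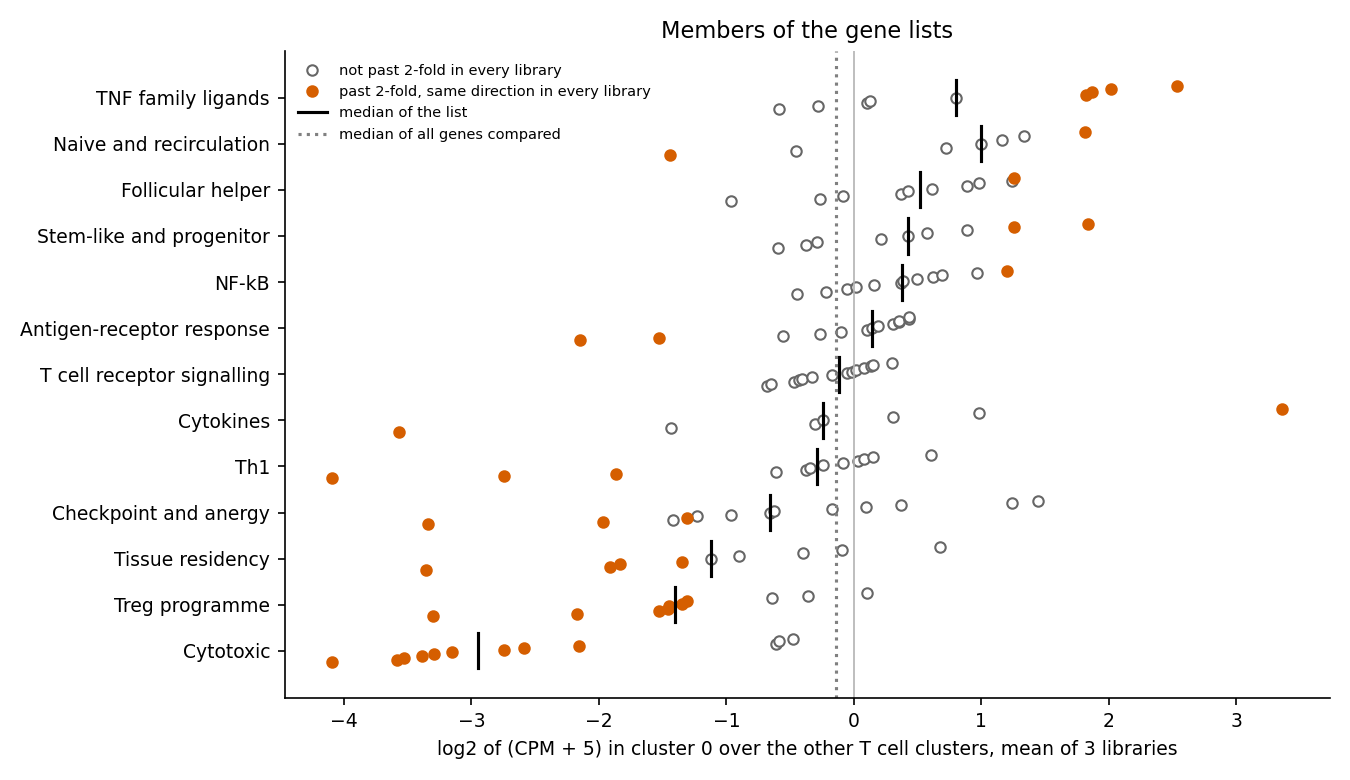
Log2 ratio of CPM + 5 in cluster 0 over the other T cell clusters, mean of 3 libraries, for the genes of 13 lists that passed the level filter, with filled points past 2-fold in every library, a bar at each list median and a dotted line at the median of all genes. Medians ran between -2.95 for cytotoxic genes and 1.00 for naive and recirculation genes.

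The lists of T cell receptor and NF-kB genes are to be read beside the 2.01% of all genes counted in either direction. None of 14 T cell receptor signalling genes was counted, and their median of -0.11 lay near that of all genes and was 0.08 with TMM scaling. Of 15 antigen-receptor response genes 13 passed the level filter with a median of 0.14, and Nr4a2 and Tnfrsf9 (4-1BB) were lower. Nfkbia, the inhibitor that NF-kB itself induces, was the 1 of 12 NF-kB genes counted as higher, with 1266, 1532 and 1512 CPM in the helper cluster, against 600, 668 and 591 CPM in the other T cell clusters, and the list median was 0.38. None of the cell division, interferon response or heat shock genes was counted, with 8, 9 and 9 of 10 passing the level filter and medians of -1.03, -0.36 and 0.43. Mki67, the proliferation antigen Ki-67, was seen in 1.31% of helper cells at 1000 UMIs, against 7.97% of CD8 cluster 4. Among receptors, 1 of 14 chemokine receptor genes was higher (Ccr7) and 4 were lower (among them Ccr2, Cxcr6 and Cx3cr1), with a median of -0.22 that TMM scaling put at 0.14. Of 9 integrin genes 3 were lower (Itgav, Itga1 and Itgae) with a median of -0.55, while Itgb1, the beta chain of the VLA integrins, was at 1.20 ± 0.26 without passing 2-fold in every library. Of 16 cytokine receptor genes Il6ra was higher and Il2ra lower, with a median of -0.60 over the 13 that passed, while TMM scaling counted Il7r as higher and Il2ra no longer as lower. Of 16 cytokine genes 7 passed, with Il2 higher, Il10 lower and a median of -0.24 that TMM scaling put at 0.00.

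Against regulatory T cells alone, 75 of 7654 genes were higher in the helper cluster (0.98%) and 170 were lower (2.22%), 3.2% in either direction, and with TMM scaling 90 were higher and 122 lower. Tnfsf8 had 1028, 944 and 509 CPM in the helper cluster, against 49.3, 49.6 and 26.8 CPM in regulatory T cells, a log2 ratio of 4.13 ± 0.12. Il21 had 163, 65.1 and 68.0 CPM in the helper cluster, against 4.67, 0 and 0 CPM in regulatory T cells. Cd40lg was at 3.26 ± 0.12, Il2 at 3.51 ± 0.26, Igfbp7 at 3.43 ± 0.21 and Spp1, the osteopontin gene, at 3.83 ± 0.86. Foxp3 led the lower genes, with 13.0, 4.71 and 20.8 CPM in the helper cluster, against 468, 429 and 582 CPM in regulatory T cells. After it came Fgl2 (-3.38 ± 0.33), a secreted effector of regulatory T cells, Arl5a (-3.35 ± 0.26), Neb (-3.99 ± 0.85), Itgae (-4.06 ± 1.06, and -4.66 without library 1) and the syndecan gene Sdc4 (-3.08 ± 0.30). Ifng had 240, 287 and 235 CPM in the helper cluster, against 60.6, 33.1 and 40.1 CPM in regulatory T cells. Of 8 residency genes that passed the level filter 3 were lower (Itgae, Rgs2 and Prdm1), with a median of -0.14 beside -0.11 for all genes, and TMM scaling counted 2 and put the median at 0.01. Cxcr6 had 147, 108 and 220 CPM in the helper cluster, against 130, 76.9 and 237 CPM in regulatory T cells, and the levels overlapped. Of 12 cytotoxic genes 5 were lower (3 with TMM scaling), and Fasl (1.98 ± 0.20), the ligand of the death receptor Fas, and Xcl1 (2.90 ± 1.09), a chemokine gene, were higher, with a median of -0.45.

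Against the CD8 T cells of clusters 3 and 4, 129 of 7497 genes were higher in the helper cluster (1.72%) and 121 were lower (1.61%), 3.33% in either direction. Tnfsf8 (4.77 ± 0.66), Cd40lg (4.03 ± 0.30) and Tnfsf11 (3.71 ± 0.34) led, followed by Igfbp7 (3.15 ± 0.15), the sialyltransferase gene St6galnac1 (3.02 ± 0.30) and Tiam1 (2.98 ± 0.36), an activator of Rac. The lower genes were led by Ccl5 (-5.15 ± 1.12, and -4.53 without library 2), Cd8a (-4.23 ± 0.64), Klrd1 (-4.38 ± 0.60), Klrc1 (-4.33 ± 0.58), Cd8b1 (-4.05 ± 0.50) and Prf1 (-4.16 ± 0.76). All 12 NF-kB genes lay above 0 in every library in this comparison, with a median of 0.97 beside 0.03 for all genes, and Nfkb1, Nfkbia and Nfkbiz passed 2-fold. Of 10 heat shock and dissociation genes 7 lay above 0 in every library, with a median of 0.77 and Atf3 counted as higher. The share of all genes above 0 in every library was not computed. Of the Treg programme 8 genes passed the level filter, none was lower and Tnfrsf18 (1.37 ± 0.07) and Tnfrsf4 (3.12 ± 0.56), which encode GITR and OX40, were higher, with a median of 0.99, and TMM scaling counted 3 of 9. Both Th2 genes that passed, Gata3 (1.44 ± 0.27) and Ccr8 (2.19 ± 0.98), were higher, with a median of 1.82.

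Cluster 6 is the Cd4 cluster with Il10. Of 7652 genes, 70 were higher in the helper cluster than in cluster 6 (0.915%) and 105 were lower (1.37%), 2.29% in either direction, and TMM scaling turned this to 93 higher and 74 lower. Tcf7 had 228, 201 and 271 CPM in the helper cluster, against 8.23, 1.69 and 8.70 CPM in cluster 6, a log2 ratio of 4.47 ± 0.42. Cluster 6 had no Il2 UMI in any library, and with 3 counts per library taken as what 0 allows, Il2 was at least 9.66-fold, 20.0-fold and 21.3-fold higher in the helper cluster of libraries 1, 2 and 3. Sostdc1, a secreted antagonist of BMP and Wnt signals, likewise had no UMI in cluster 6 and was at least 7.24-fold, 12.2-fold and 5.46-fold higher in the helper cluster. Only 36 of 1201, 23 of 539 and 15 of 485 helper cells had a Sostdc1 UMI. The 1% of helper cells with the most held 67.4%, 47.2% and 65.4% of its UMIs. Klf2 had 305, 575 and 1047 CPM in the helper cluster, against 28.0, 50.6 and 125 CPM in cluster 6, and Tespa1 (3.41 ± 0.43) and Gpr183, the gene of an oxysterol-guided migration receptor (2.84 ± 0.23), complete the 6. Of 8 naive and recirculation genes 7 passed the level filter and 5 were higher (Ccr7, S1pr1, Klf2, Klf3 and Il7r), with a median of 2.29. Il10 had 14.8, 12.9 and 34.6 CPM in the helper cluster, against 751, 1090 and 569 CPM in cluster 6. Xcl1 was higher in the helper cluster (2.27 ± 0.50), while 5 of the 11 cytotoxic genes that passed the level filter were lower. Other lower genes were Ccl3 (-4.24 ± 0.39), Neb (-3.55 ± 0.58), Lztfl1 (-3.47 ± 0.38) and Havcr2 (-3.27 ± 0.57).

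In all 3 pairwise comparisons, which share the helper cells, 15 genes were higher: Il2, Tnfsf11, Tcf7, Slamf6, Ccr7, Tnfrsf25, Dusp14, Tespa1, Fam43a, Marcksl1, Aff3, Plagl1, Sostdc1, Asap1 and Gypc. Tnfsf8 and Cd40lg are not among these, with log2 ratios of 0.45 ± 0.23 and 0.14 ± 0.07 over cluster 6. Another 15 genes were lower in all 3, among them Ccl5, Ccl4, Nkg7, Ccr2, Cst7, Fgl2, Entpd1, which encodes the ectonucleotidase CD39, and Ikzf3. The comparisons with regulatory T cells, CD8 T cells and cluster 6 took in 7654, 7497 and 7652 genes. They counted 75, 129 and 70 of these as higher and 170, 121 and 105 as lower. A share over all genes was not computed for the overlap.

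The helper transcripts were then counted cell by cell at 1000 UMIs. Tnfsf8 was seen in 48.4%, 46.6% and 29.8% of helper cells of libraries 1, 2 and 3, a mean of 41.6 ± 10.3%, against 30.9% of cluster 6, 3.05% of regulatory T cells and 1.39% of B cells. Slamf6 was seen in 33.0 ± 12.2% of helper cells, but also in 17.1% of B cells. Cd40lg was seen in 20.5 ± 4.66%, Tnfsf11 in 18.3 ± 7.32% and Tcf7 in 17.8 ± 4.33% of helper cells. B cells showed these in 12, 2 and 12 of 1904 cells. Il2 was seen in 3.28%, 5.21% and 5.92% of helper cells, a mean of 4.80 ± 1.37%, and in 0 of 1904 B cells and 0 of 571 macrophages, which allows shares of up to 0.158% and 0.525%. Median depths before thinning were 3128 UMIs in helper cells, 3114 in B cells and 7434 in macrophages. Without thinning, the helper shares were 63.4% for Tnfsf8, 64.0% for Slamf6, 46.1% for Cd40lg, 38.1% for Tnfsf11, 48.1% for Tcf7 and 11.1% for Il2.

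At least 1 of Tnfsf8, Tnfsf11, Il2, Tcf7 and Slamf6 was seen in 77.2%, 73.9% and 67.2% of helper cells of libraries 1, 2 and 3 at that depth, and at least 3 of them in 8.46 ± 2.59%. The share with at least 1 was 44.0 ± 4.35% in cluster 6, 22.5 ± 5.63% in regulatory T cells and 19.1 ± 4.93% in B cells, where Slamf6 made up most of it. At least 1 of the 4 ligand genes Tnfsf8, Tnfsf11, Cd40lg and Lta was seen in 60.1 ± 1.74% of helper cells, 47.1 ± 0.858% of cluster 6, 39.5 ± 7.54% of Mixed, 7.99 ± 3.02% of regulatory T cells and 3.58 ± 0.154% of B cells. The helper share was nearly the same in the 3 libraries, between 58.4% and 61.8%, although the single ligands differed between libraries. Both sets hold only genes already counted as higher in the helper cluster, and the other TNF family ligands were left out. The order of the clusters therefore follows in part from the choice of genes and is no separate support for the summed levels.

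The cluster's weight in the nerve was measured as its part of all UMIs of a gene in a library. Helper cells were 19.3 ± 4.18% of all cells and held 16.9 ± 3.63% of all UMIs. They held 86.0%, 83.7% and 86.4% of the Il2 UMIs of libraries 1, 2 and 3, which were 184 of 214, 236 of 282 and 203 of 235 UMIs. Their part was 73.7 ± 9.57% for Tnfsf11, 72.8 ± 8.05% for Tnfsf8, 61.5 ± 7.81% for Cd40lg, 58.9 ± 9.13% for Il21, 55.9 ± 9.09% for Lta and 52.3 ± 3.51% for Spp1. For Tnfsf11 and Tnfsf8 library 3 was lowest, at 62.6% and 63.6%, and its share of helper cells was lowest too. Other effector transcripts were spread wider, with 31.8 ± 6.82% for Tnfsf14 (LIGHT), 31.1 ± 4.37% for Ifng, 23.7 ± 6.08% for Ltb and 19.9 ± 6.90% for Tnf in the helper cluster. Il10 was at 4.35 ± 1.77%. Il17a gave 2, 0 and 0 UMIs in the helper cluster, where 0 allows up to 1.29 CPM in library 2 and 1.65 CPM in library 3. These parts also depend on the number of cells, which was 2225 for the helper cluster and 592 for cluster 6. At 1000 UMIs Il21 was seen in 7.23 ± 4.11% of helper cells and 14.1 ± 4.01% of cluster 6, with cluster 6 higher in every library. Spp1 was seen in 5.85 ± 0.825% of helper cells and 7.70 ± 5.34% of cluster 6, with cluster 6 higher in library 1 only.

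**Figure D4:**
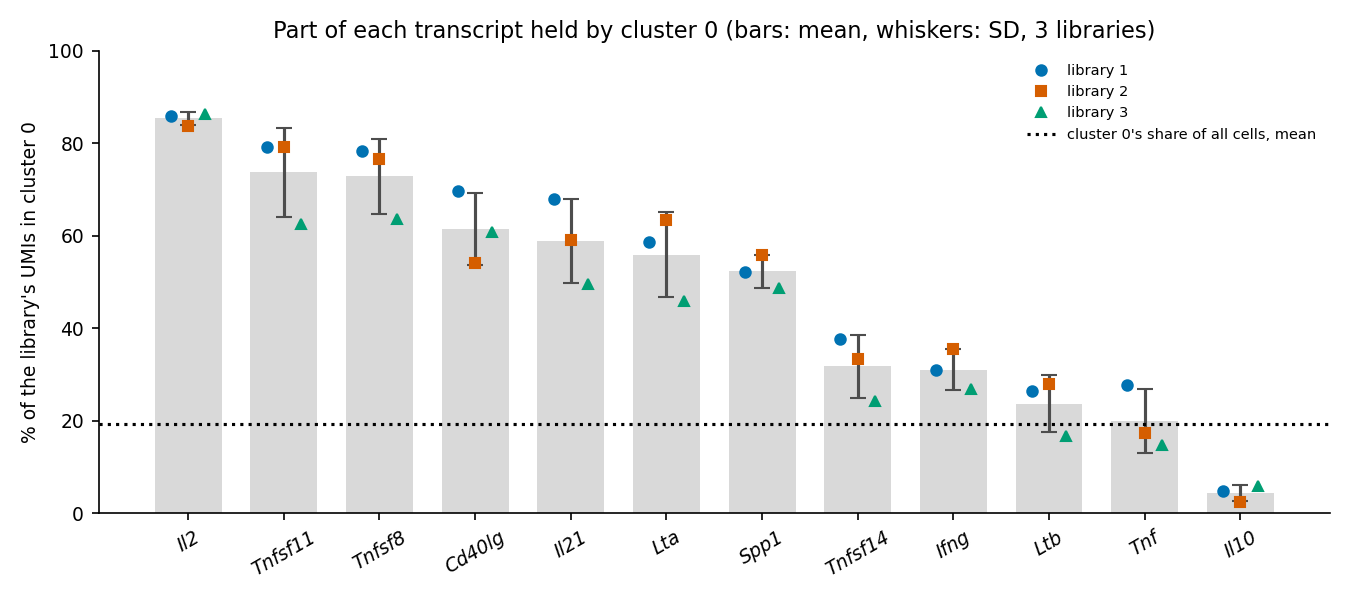
Percent of a library's UMIs of each gene that lay in cluster 0, with bars at the mean of 3 libraries, whiskers for the SD and 1 point per library, and a dotted line at the cluster's mean share of all cells (19.3%). Il2 reached 85.4% and Il10 4.35%.

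Levels of 4 receptors of these ligands were set beside those of the ligands. Tnfrsf11a, which encodes RANK, the receptor of Tnfsf11, had 32.8 ± 19.8 CPM in macrophages and 27.6 ± 10.5 CPM in conventional dendritic cells, and 3 UMIs in the whole helper cluster. Cd40, the receptor of Cd40lg, had 172 ± 61.7 CPM in conventional dendritic cells, 121 ± 47.0 CPM in macrophages and 88.0 ± 46.4 CPM in B cells, and 1.45 ± 0.681 CPM in the helper cluster. Il2ra, the high-affinity chain for interleukin 2, had 39.9 ± 3.40 CPM in the helper cluster, against 210 ± 38.3 CPM in regulatory T cells, 254 ± 86.2 CPM in cluster 5 and 167 ± 52.8 CPM in Mixed. Tnfrsf8, which encodes CD30, the receptor of Tnfsf8, had 1.78 ± 0.316 CPM in the helper cluster, against 14.7 ± 4.86 CPM in regulatory T cells and 33.3 ± 24.6 CPM in cluster 5, where library 1 was low. Of 12 receptor genes 11 were in the table and 7 passed the level filter in the comparison with the other T cell clusters, with Il2ra lower and none higher, and TMM scaling counted none. None of 6 was counted against CD8 T cells.

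Variance over mean (the Fano factor) was taken in cells thinned to 1000 UMIs for 2136 genes with a mean of at least 0.05 UMIs in every library, where its median was 1.04. The 12 leading genes were Ccl5 (10.0 ± 2.24), Malat1 (7.59 ± 1.84), Spp1 (6.19 ± 0.973), Ifng (5.53 ± 2.79), S100a6 (2.99 ± 0.26), Nfkbia (3.99 ± 1.16), Rgs1 (2.67 ± 0.108), Tmsb4x (3.15 ± 0.614), Klf2 (3.08 ± 0.569), Ifi27l2a (2.71 ± 0.313), Gadd45b (2.91 ± 0.529) and Crip1 (2.93 ± 0.548), ranked by their lowest library. Nfkbia is also among the genes higher in the cluster, and Tnfsf8 came at rank 14 with 2.20 ± 0.05. The 12 hold a nuclear RNA (Malat1), effector secreted products (Ccl5, Spp1 and Ifng) and genes of motility and the cytoskeleton (Rgs1, Tmsb4x). Malat1 averaged 33.3, 19.6 and 5.13 UMIs per thinned cell in libraries 1, 2 and 3, so its level also differed between libraries.

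A few cells held much of some transcripts. The 1% of helper cells with the most Spp1 held 50.8%, 50.4% and 50.3% of its UMIs in libraries 1, 2 and 3, and Spp1 was seen at all in 125 of 1201, 47 of 539 and 37 of 485 cells. For Il2 the same part was 36.4%, 37.3% and 52.2%, with 88, 71 and 62 cells carrying a UMI and up to 9, 36 and 69 UMIs in a single cell. Tnfsf8 was evenly spread by comparison, at 7.07%, 5.49% and 9.15%. Csf2, the GM-CSF gene, gave 4, 103 and 0 UMIs, and 96 of the 103 lay in 1 cell of library 2, which had 7545 UMIs in all, among them 29 of Tnfsf8 and 17 of Ifng, and was not called a doublet. Il13 gave 2, 113 and 5 UMIs, with 110 in 1 other cell of library 2. Group means of Csf2 and Il13 therefore rest on 1 cell each.

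Pairs of genes were counted in the same thinned cells and set against the number expected if they fell independently within each library. Tnfsf11 and Il2 were seen together in 34 cells where 16.5 were expected, which is 2.06 times the expected number, and 2.85, 1.97 and 1.69 times in libraries 1, 2 and 3. Tnfsf8 with Tnfsf11 was seen in 1.29 times the expected number of cells (186 cells) and Tcf7 with S1pr1 in 1.31 times (126 cells), each above 1 in every library. Ifng with Tnf was seen in 24 cells where 9.98 were expected. Ccr7 and Cxcr6 were seen together in 19 cells where 53.0 were expected, at 0.32, 0.32 and 0.41 times in the 3 libraries. Ifng with Tcf7 stood at 0.78, 0.63 and 0.55 times and Il2 with Tcf7, in 12 cells, at 0.92, 0.56 and 0.51 times. Tcf7 with Slamf6 (1.06 times) and Tnfsf8 with Tcf7 (1.00 times) were near 1. Cells share a library and depth was equalised, and no p-value is given for these counts.

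**Figure D5:**
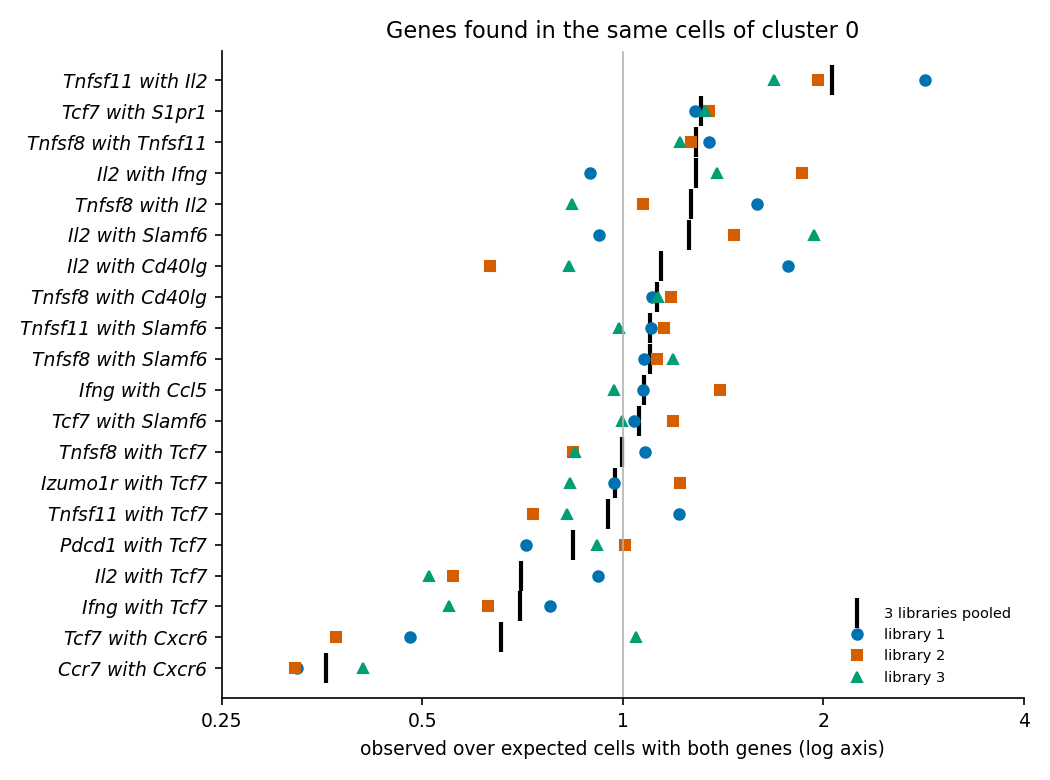
Observed over expected number of cells of cluster 0 with both genes of a pair, on a log axis, for the 20 of 22 pairs with at least 10 expected cells, with 1 point per library and a black bar for the 3 libraries pooled. Tnfsf11 with Il2 stood at 2.06 at the top and Ccr7 with Cxcr6 at 0.36 at the bottom.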

How the data were processed

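Single-cell RNA was measured in 3 libraries of 1 group (NOD.AIRE GW/+ nerves, CD45+ cells). The authors deposited unscaled UMI counts of 17168 genes in 11640 cells, with a cell table that gives per cell the counts of UMIs and genes, the mitochondrial percent and cell cycle scores, per the file headers; the scores were not used. Recomputed UMI totals equal the deposited ones in every cell. Cell Ranger 5.0.1, Seurat 4.0 and mm10 are named, without roles, per the submitters' processing notes. Clusters and class names are the authors' own. The cell numbers in the labels (6033, 2333 and 3274) pair cells with libraries. One library, library 1, carries the ending "pos" in its name, which nothing explains. Whether each library came from its own animal or pool is not stated, so the SD may be technical.

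The members and gene lists were chosen with earlier results of these data known. All deposited cells were kept. Scrublet in scanpy 1.11.5 called 84 cells doublets (75, 8 and 1 in libraries 1, 2 and 3), 5 of them in cluster 0, and a run without them is among the alternatives. A cell barcode was shared between libraries 6 times, with 2 such cells in cluster 0. UMIs were summed per cluster and library and scaled to CPM, and the other T cell clusters had equal weight. TMM factors came from edgeR 4.0.16 in R 4.3.3. Cells under 1000 UMIs were left out of thinned shares. Named genes are the 15 highest and 12 lowest against the other T cell clusters, the 6 highest and 6 lowest in each pairwise comparison, ranked by the library nearest 0, and the 12 most variable, without antigen-receptor segments, mitochondrial, ribosomal and unnamed predicted genes. List members may be named too. Some genes that this rule or the lists take in are not reported here, and the recirculation genes counted per cell were chosen after their values were seen. The ratio rule was also run on simulated data, but the outcome is not given here and is not used as support. Intervals are exact (Clopper-Pearson, 95%) and cover counting error only.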

Additional observations from a re-analysis of the deposited data

How the results depend on the processing

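No paired analysis was possible because there is 1 group of libraries, so that no replicate number pairs samples of different groups; the ratios themselves already pair clusters within a library. Of 63 log2 ratios of named genes none changed sign, and 4 fell short of 2-fold in some library, as given above. These genes were chosen for being past 2-fold in every library. Leaving out a library, dropping the filter or lowering the pseudocount could therefore not change a sign. Against the other T cell clusters, genes higher in cluster 0 numbered 52 with TMM scaling, 50 with those cells pooled and 51 without cluster 5 among them, against 31 as reported. Adding gdT/NK/NKT and Mixed gave 202 lower genes, against 127. The other alternatives kept each count within 1.5 times, but not always the genes: with equal numbers of cells 31 were higher and 160 lower, of which 19 and 98 were among the 31 and 127. Leaving out each library in turn gave between 32 and 45 higher and 152 and 181 lower genes against the other T cell clusters, 86 to 91 and 189 to 213 against regulatory T cells, 130 to 168 and 144 to 159 against CD8 T cells, and 77 to 95 and 127 to 138 against cluster 6. With fewer libraries the rule is easier to pass, so these larger counts do not show how far the calls rest on 1 library. Leaving out a library gave a share of T cells between 27.6% and 34.6% and kept 8 to 11 of the 12 most variable genes. The Il2 part was 88.9% with cells thinned, and that of Csf2 was 6.06% without library 2, against 25.5%. Shares of cells with a UMI depend on depth: all 26 moved without thinning and 20 moved at 2000 UMIs.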
